A study of Mus musculus with 17 samples.

Results

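The troponins and sarcomeric myosin light chains that differ between fast and slow muscle fibers were described in the mouse diaphragm, as 10 of the 47643 genes in the expression table. The genes were picked by symbol. The 5 fast genes were Tnnt3, Tnni2, Tnnc2, Myl1 and Mylpf, and the 5 slow genes were Tnnt1, Tnni1, Tnnc1, Myl3 and Myl2, so that each fast gene had a slow partner encoding the same subunit. Diaphragm RNA came from 17 mice, all males of the C57BL/6J strain and 4 months old, and 1 library was sequenced per mouse. Control mice (n = 5) had no tumor and received mock injections, and Control + rFibcd1 mice (n = 5) had no tumor and received rFibcd1. This is a recombinant C-terminal piece of the mouse transmembrane protein Fibcd1, made to resemble the fragment that is cleaved off and secreted. LLC mice (n = 3) carried subcutaneous tumors of Lewis lung carcinoma cells, a transplantable mouse lung cancer line, together with mock injections, and LLC + rFibcd1 mice (n = 4) carried the same tumors and received rFibcd1. The injections went into the peritoneal cavity, which the diaphragm borders, and the labels name no engineered allele. The design asks which transcripts change with the tumor and whether rFibcd1 alters that change.

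Troponin is the calcium switch of the striated muscle thin filament. Troponin T fixes the complex to tropomyosin, troponin I holds myosin off actin at rest, and troponin C binds calcium and releases that block. Myosin light chains wrap the neck of the myosin heavy chain, with an essential light chain (Myl1 in fast fibers, Myl3 in slow fibers) and a regulatory light chain (Mylpf in fast fibers, Myl2 in slow fibers) on each head. Fast and slow fibers carry different genes for each subunit, and Tnnc1, Myl2 and Myl3 are also the genes used by heart ventricle. The diaphragm mixes slow and fast fibers and contracts throughout life with each breath.

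The genes lie on several chromosomes (GENCODE annotation on GRCm38). The neighbors Tnni2 at chr7:142441808-142444410 and Tnnt3 at chr7:142498836-142516009 are 54.4 kb apart on the same strand, and Mylpf lies at chr7:127208890-127214298. Tnnc2 lies at chr2:164777161-164779967 and Myl1 at chr1:66924295-66945404. Of the slow genes, Tnnt1 lies at chr7:4504570-4516382, Tnni1 at chr1:135779434-135810989, Tnnc1 at chr14:31208312-31211729, Myl3 at chr9:110741861-110769798 and Myl2 at chr5:122100951-122113472. Tnnt3, Tnnc2, Tnnc1, Myl3 and Myl2 each overlap another gene on the opposite strand. The largest of these overlapping genes by level, Prr33 at Tnnt3, was at 55.2 to 87.9 TPM against 9829 to 12922 TPM for Tnnt3, and whether the counting used strand was not settled, since the sources name different library kits.

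Promoter windows from RefSeq (GRCm38.p6, 250 bases before to 50 after a gene's start) were found for 8 of the 10 genes, which are Tnnc2, Myl1, Mylpf and the 5 slow genes (Myl2 and Tnni1 with 2 windows each). The windows follow RefSeq gene starts, which can differ from the GENCODE starts above, so that those of Myl1, Mylpf, Tnnt1, Tnni1 and Myl3 lie inside the gene's span, those of Myl2 lie before it, and those of Tnnc2 and Tnnc1 cross its start. Of these, 4 are shown because they contrast fast with slow partners in troponin C and the essential light chain, and Mylpf is added because it had the largest fall in expression of the 10 genes. Capitals mark the E-box CANNTG (bound by myogenic bHLH factors), CATTCC (the MCAT element, bound by TEAD factors), TATAAA and the CArG box (bound by serum response factor), searched on both strands; no marked match overlapped another in these windows.
Tnnc2, chr2:164779685-164779984, minus strand: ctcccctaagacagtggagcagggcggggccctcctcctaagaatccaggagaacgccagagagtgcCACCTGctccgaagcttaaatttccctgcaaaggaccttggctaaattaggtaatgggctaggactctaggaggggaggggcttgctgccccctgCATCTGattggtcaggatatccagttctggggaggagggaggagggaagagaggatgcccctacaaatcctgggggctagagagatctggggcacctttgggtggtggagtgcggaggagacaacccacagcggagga
Tnnc1, chr14:31208062-31208361, plus strand: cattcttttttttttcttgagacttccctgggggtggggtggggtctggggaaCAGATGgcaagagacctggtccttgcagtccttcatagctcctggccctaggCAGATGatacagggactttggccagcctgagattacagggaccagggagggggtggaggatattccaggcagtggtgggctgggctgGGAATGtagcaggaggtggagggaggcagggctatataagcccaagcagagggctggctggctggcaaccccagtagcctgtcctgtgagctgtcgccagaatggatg
Myl1, chr1:66945007-66945306, minus strand: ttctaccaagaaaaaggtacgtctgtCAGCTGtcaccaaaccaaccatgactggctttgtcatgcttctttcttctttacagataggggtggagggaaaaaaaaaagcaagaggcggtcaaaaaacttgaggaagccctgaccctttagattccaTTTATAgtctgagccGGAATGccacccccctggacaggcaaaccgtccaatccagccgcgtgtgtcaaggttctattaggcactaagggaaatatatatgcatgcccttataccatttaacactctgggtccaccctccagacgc
Myl3, chr9:110763428-110763727, plus strand: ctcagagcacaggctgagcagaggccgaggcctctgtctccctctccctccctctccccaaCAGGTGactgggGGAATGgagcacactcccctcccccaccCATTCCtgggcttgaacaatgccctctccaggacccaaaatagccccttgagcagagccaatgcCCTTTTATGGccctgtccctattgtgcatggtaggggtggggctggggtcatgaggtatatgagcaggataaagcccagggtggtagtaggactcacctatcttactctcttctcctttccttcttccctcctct
Mylpf, chr7:127211358-127211657, plus strand: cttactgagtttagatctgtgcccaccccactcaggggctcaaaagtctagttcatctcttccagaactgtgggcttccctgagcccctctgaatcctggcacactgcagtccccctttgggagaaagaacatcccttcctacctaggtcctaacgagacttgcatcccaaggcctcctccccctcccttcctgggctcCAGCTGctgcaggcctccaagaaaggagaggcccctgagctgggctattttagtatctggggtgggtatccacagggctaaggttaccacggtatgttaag
An E-box was present in 3 of the 3 fast and 5 of the 5 slow genes with a window, against 72.3% of the 32851 promoters in the table. CATTCC was present in 1 fast gene (Myl1) and 2 slow genes (Tnnc1 and Myl3), against 14.7% of promoters. The CArG box was found in Myl3 alone among the 8 genes and in 1.63% of promoters, and TATAAA in Myl1, Tnnt1 and Myl2 and in 13.6% of promoters. A match to a MEF2 site was found in 0 of the 8 genes and in 3.19% of promoters, which says only that these letters are not in this window.

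Fast transcripts dominated the tissue in every mouse. TPM values are scaled for gene length, so levels can be compared between genes, and the 5 fast genes ranged from 1650 TPM (Myl1 in an LLC + rFibcd1 mouse) to 12922 TPM (Tnnt3 in a Control + rFibcd1 mouse). By mean level they ranked between 14 and 34 among all genes. The 5 slow genes ranged from 57.8 TPM (Tnni1) to 659.6 TPM (Myl2) and ranked between 173 and 944. Slow transcripts made up 4.53% ± 0.43 (SD, n = 5) of the summed level of all 10 genes in Control mice, 4.34% ± 0.91 (n = 5) in Control + rFibcd1, 5.05% ± 0.16 (n = 3) in LLC and 5.35% ± 0.91 (n = 4) in LLC + rFibcd1. The mean fast level was 33.2 times the slow level for troponin T, 67.6 times for troponin I and 26.8 times for troponin C in Control mice. For the light chains the excess was smaller, at 6.71 times for Myl1 over Myl3 and 10.5 times for Mylpf over Myl2.

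The depth behind each sample, estimated from the steps between low TPM values, was 50700000 to 54500000 reads (rounded to 3 digits), and the smallest estimated number of reads behind any of the 10 genes was 5018 (Tnni1), a counting error of 1.41%. The SD between mice within a group was 0.24 (Tnnt1) to 0.30 (Tnni1) on the log2 scale for slow genes and 0.066 (Tnnt3) to 0.11 (Myl1) for fast genes. The defining myofiber markers Acta1, Ckm, Des, Ttn and Neb summed to 25862 to 32139 TPM in the 17 mice, as a muscle label requires. Other tissue was present too. Summed liver markers ran from 0.469 to 2734 TPM, highest in Control + rFibcd1 replicate 2, the lowest mouse of its group for 4 of the 5 fast genes. Summed adipocyte markers were at 792 ± 658 TPM (SD, n = 5) in Control and 2649 ± 1900 TPM (n = 3) in LLC. The part of these tissues in the values of the 10 genes was not tested.

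**Figure D1:**
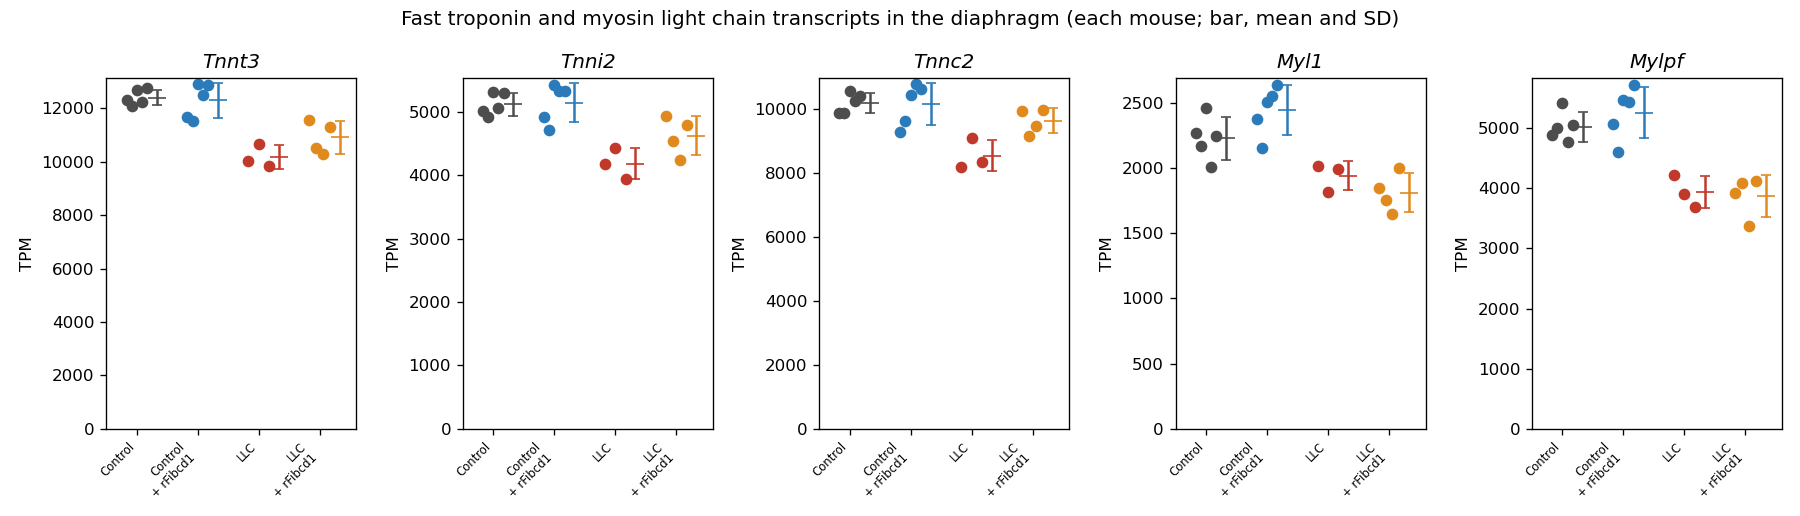
TPM (vertical axis, from 0) of the 5 fast genes in each mouse (points) of the 4 groups, with the mean and SD of each group beside them. The 3 LLC mice lie below all 5 Control mice for Tnnt3, Tnni2, Tnnc2 and Mylpf but overlap with them for Myl1.

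Fast troponins and the fast regulatory light chain were lower in LLC mice than in Control mice. With limma and adjustment over all 13305 genes tested, 4 of the 10 genes fell in LLC against Control, all of them fast genes, where 35.8% of all genes were called in either direction and 6.02% were called lower. By Dunn comparisons, the test the study used but adjusted here over all genes, and with a replicate block, 0 of the 10 genes passed (3 and 4 at an unadjusted p under 0.05). These settings called 0 and 5 of all genes. The median change of the 5 fast genes was -0.29 on the log2 scale, against 0.16 for all genes tested, and that of the 5 slow genes was -0.07. Summed over the 5 genes, the mean fast level was 34965 ± 1058 TPM (SD, n = 5) in Control and 28773 ± 1075 TPM (n = 3) in LLC, a difference of -17.7%. This tissue is a mixture of cells, so a smaller share of fast fibers, less RNA per fiber and more RNA from other cells cannot be told apart.

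Tnnt3, the fast troponin T, was at 12297, 12084, 12673, 12222 and 12761 TPM in the Control mice and at 10019, 10684 and 9829 TPM in the LLC mice. Every LLC mouse lay below every Control mouse. The log2 change was -0.29 ± 0.05 (SE; adjusted p = 0.00808), a fall of 18.0%. Tnni2, the fast troponin I and the neighbor of Tnnt3, was at 5016, 4918, 5320, 5058 and 5297 TPM in Control and at 4178, 4429 and 3940 TPM in LLC, again without overlap. It fell by 0.29 ± 0.06 on the log2 scale (SE; adjusted p = 0.00942). Tnnc2, the fast troponin C, read 9871, 9846, 10547, 10249 and 10382 TPM in Control and 8170, 9089 and 8330 TPM in LLC. These groups did not overlap either, and the change was -0.26 ± 0.05 (SE; adjusted p = 0.0103).

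Mylpf, the fast regulatory light chain, was at 4885, 4998, 5427, 4767 and 5051 TPM in Control mice and at 4220, 3906 and 3695 TPM in LLC mice. It had the largest fall of the 10 genes, -0.35 ± 0.08 (SE; adjusted p = 0.0106) or 21.6%, and its groups did not overlap. Without LLC replicate 3, however, limma called 0 of the 10 genes (5 at an unadjusted p under 0.05) and 0.18% of all genes, and the adjusted p of those 4 genes lay between 0.0591 (Tnnt3) and 0.0716 (Mylpf). Their differences in that fit were -0.26 for Tnnt3, -0.25 for Tnni2, -0.24 for Tnnc2 and -0.31 for Mylpf. Non-overlap with LLC below was seen for 4 of 10 genes, against 6.67% of all genes tested. Myl1, the fast essential light chain, read 2267, 2172, 2463, 2007 and 2247 TPM in Control and 2021, 1814 and 1997 TPM in LLC. Only 1 Control mouse was inside the LLC range, and the difference of -0.20 ± 0.08 (SE) missed the threshold (adjusted p = 0.0572).

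The size of these falls depended on what they were measured against. Relative to the mean log2 level of 9 general myofiber genes in the same mouse (Acta1, Ckm, Des, Ttn, Neb, Tcap, Ldb3, Cmya5 and Myom1), 0 of the 10 genes passed in LLC against Control by limma (0 at an unadjusted p under 0.05), and the differences of Tnnc2 and Myl1 changed sign, to 0.012 and 0.071. That fit called 9650 of all 13305 genes, with a median of 0.43 over all genes. Of those 9 general myofiber genes, 7 fell themselves (4 without Control replicate 4, 2 without LLC replicate 1 and 0 without LLC replicate 3, in fits added after seeing the data). Median-ratio scaling moved the median of all genes in this comparison from 0.16 to -0.01 and called 5 of the 10 genes, Myl1 among them (-0.40), beside 3950 of all genes. Quantile normalization called 3 of the 10, beside 4685 of all genes, and Tnnt3 did not reach an unadjusted p under 0.05 there. The summed B cell markers (Cd79a, Cd79b, Ms4a1, Cr2 and Pax5) were at 2.17 to 77.4 TPM in Control mice and at 178.4 to 225.1 TPM in LLC mice, and mitochondrially encoded transcripts took 47.1% ± 1.1 (SD, n = 5) of all TPM in Control and 42.9% ± 1.5 (n = 3) in LLC. With a B cell score as covariate 0 of the 10 genes passed by limma (4 at an unadjusted p under 0.05), where 9 of all 13305 genes were called. Rescaling without mitochondrial genes gave 5 of the 10, beside 3945 of all genes.

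**Figure D2:**
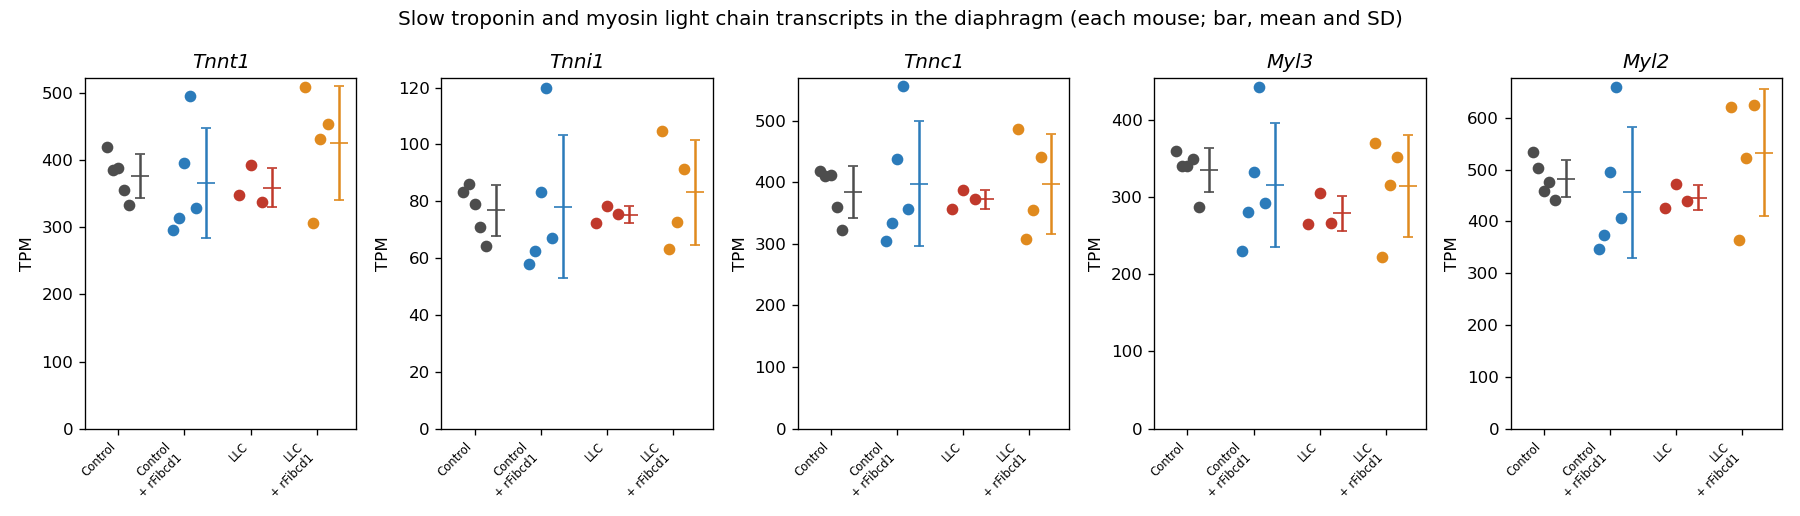
TPM (vertical axis, from 0) of the 5 slow genes in each mouse (points) of the 4 groups, with the mean and SD of each group. The groups overlap for every gene, and the rFibcd1-treated groups spread the most, for Tnni1 from 57.8 to 119.9 TPM in Control + rFibcd1.

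No slow partner passed the test in any comparison of groups. In LLC against Control their log2 differences ran from -0.26 ± 0.18 (SE) for Myl3 to -0.02 ± 0.20 for Tnni1, with adjusted p between 0.256 and 0.942, and 0 of 5 had an unadjusted p under 0.05 by limma. Tnnt1, the slow troponin T, was at 419, 386, 389, 356 and 333 TPM in Control and 348, 393 and 337 TPM in LLC. Myl2, the slow and ventricular regulatory light chain, was at 534, 503, 459, 476 and 441 TPM in Control and 425, 473 and 440 TPM in LLC. The groups overlapped for both genes. In a fit of the LLC and Control mice alone, Myl3 passed at -0.26 (adjusted p = 0.0365). The intervals were wide: for Tnnt1 the 95% interval of the change was -0.42 to 0.28, which still contains the -0.29 measured for Tnnt3, so a slow fall of the same size was not resolved from no change.

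Tnni1, the slow troponin I, was the lowest of the 10 genes, at 83.4, 86.2, 79.1, 71.1 and 64.2 TPM in Control and 72.4, 78.2 and 75.4 TPM in LLC. Tnnc1, the slow and cardiac troponin C, was at 418, 410, 412, 359 and 322 TPM in Control and 356, 387 and 373 TPM in LLC. Myl3, the slow and ventricular essential light chain, was at 360, 340, 339, 349 and 287 TPM in Control and 265, 305 and 266 TPM in LLC. For each of these genes the LLC mice overlapped the Control range, Myl3 through Control replicate 5 alone. The direction of the slow genes is not fixed by these data, since relative to the general myofiber genes all 5 were above 0 in LLC against Control.

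**Figure D3:**
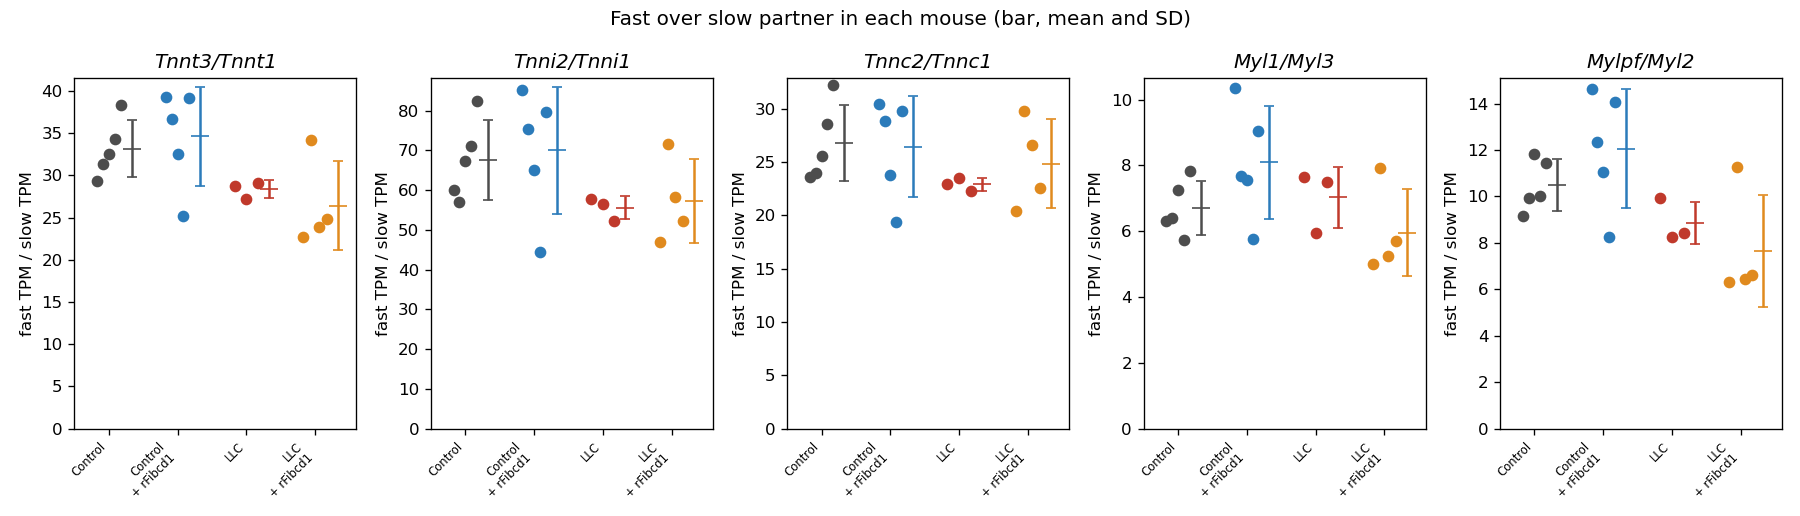
Fast TPM divided by slow TPM (vertical axis, from 0) for the 5 partner pairs in each mouse (points), with the mean and SD of each group. LLC mice lie below every Control mouse for Tnnt3/Tnnt1 and Tnnc2/Tnnc1, and 3 of 4 LLC + rFibcd1 mice lie between 6.31 and 6.62 for Mylpf/Myl2 while the remaining mouse is at 11.3.

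The ratio of a fast gene to its slow partner within a mouse depends little on how the mouse was scaled, and it tests the difference between partners directly. A total of 30 exact permutation tests were made (5 pairs in 6 comparisons, two-sided, not adjusted), of which 6 gave p under 0.05. In LLC against Control, Tnnt3 was 29.3, 31.3, 32.6, 34.4 and 38.3 times Tnnt1 in the Control mice and 28.8, 27.2 and 29.1 times in the LLC mice. All LLC ratios were lower, and the mean log2 ratio differed by -0.22 (exact p = 0.0357, the smallest that 3 against 5 mice allow). Tnnc2 was 23.6, 24.0, 25.6, 28.5 and 32.2 times Tnnc1 in Control and 22.9, 23.5 and 22.3 times in LLC, a log2 difference of -0.22 with the same exact p. In a limma fit of the ratios beside all genes, the same differences had adjusted p = 0.242 and 0.268. With 1 of the 8 mice left out this test cannot pass, since its smallest possible p is 0.0571 for 3 against 4 mice and 0.0952 for 2 against 5.

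The other pairs did not separate in LLC against Control. Tnni2/Tnni1 and Mylpf/Myl2 had lower means in LLC, by -0.27 and -0.24 on the log2 scale (exact p = 0.0714 for each), while the essential light chains Myl1/Myl3 differed by 0.07 (exact p = 0.714). The mean of the 5 log2 ratios, given with no test, was 4.39 ± 0.15 (SD, n = 5) in Control, 4.48 ± 0.31 (n = 5) in Control + rFibcd1, 4.21 ± 0.07 (n = 3) in LLC and 4.11 ± 0.28 (n = 4) in LLC + rFibcd1. The LLC and Control means thus differed by -0.18, beside a within-group SD of 0.235 over the 4 groups.

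**Figure D4:**
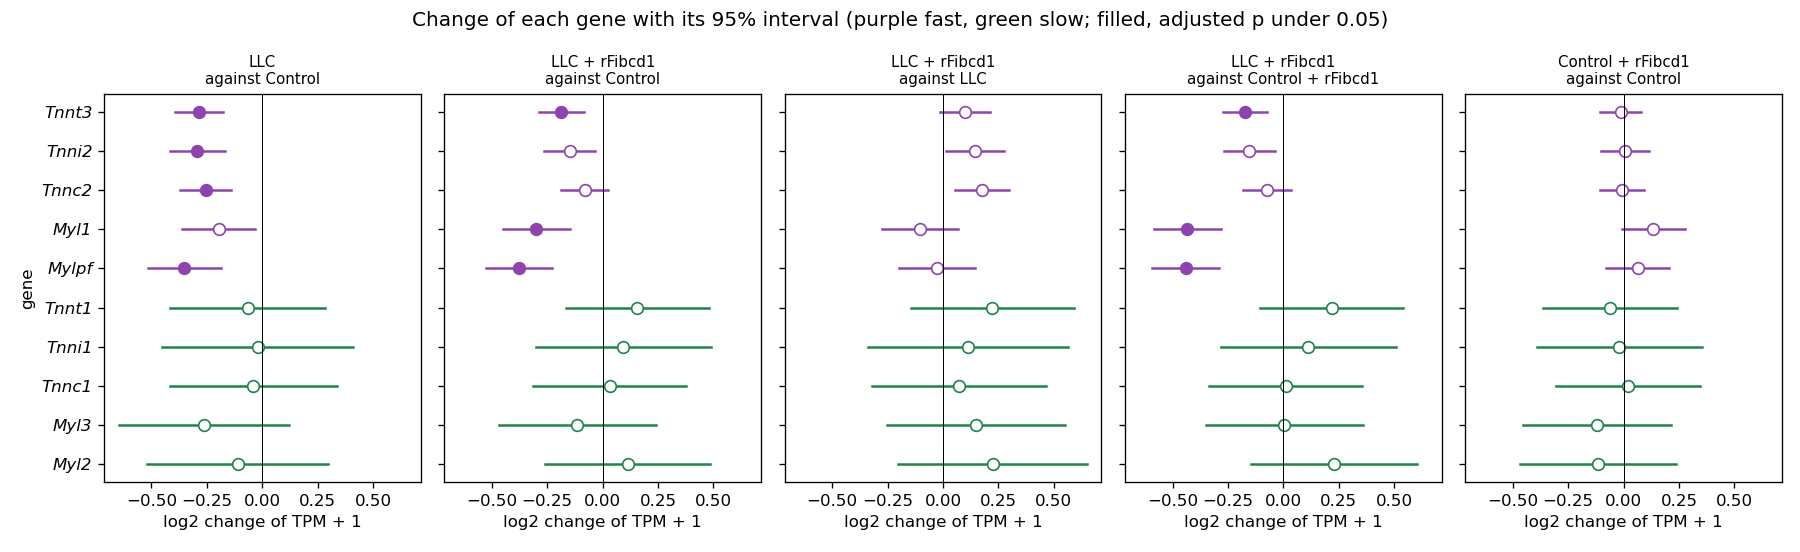
Log2 change of TPM + 1 (horizontal axis) with its 95% interval for the 10 genes (rows) in 5 comparisons, fast genes in purple and slow genes in green, filled where the adjusted p was under 0.05. Intervals of slow genes are wider and all cross 0, and Mylpf is filled in each of the 3 comparisons of tumor-bearing with tumor-free groups.

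rFibcd1 in tumor-bearing mice was followed by no called change. In LLC + rFibcd1 against LLC, limma called 0 of the 10 genes (0.113% of all genes were called), and 2 had an unadjusted p under 0.05, as did 3025 of all 13305 genes, Tnnc2 (0.17 ± 0.06, SE; adjusted p = 0.177) and Tnni2 (0.15 ± 0.06; adjusted p = 0.206). Tnnc2 read 9916, 9153, 9454 and 9959 TPM in the 4 LLC + rFibcd1 mice, all above the LLC mice at 8170 to 9089 TPM, a separation that 5.26% of all genes showed in that direction. Tnni2 read 4938, 4539, 4240 and 4792 TPM, which overlapped the LLC range, and Tnnt3 read 11575, 10500, 10310 and 11288 TPM with a difference of 0.10 ± 0.05. The light chains gave differences of the opposite sign in means, with Myl1 at 1848, 1753, 1650 and 1999 TPM (-0.10 ± 0.08) and Mylpf at 3921, 4093, 3369 and 4130 TPM (-0.03 ± 0.08). Neither light chain passed the test (adjusted p = 0.401 and 0.845), and the Mylpf interval of -0.20 to 0.15 bounds its change.

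The slow genes had positive differences in LLC + rFibcd1 against LLC, from 0.07 ± 0.18 (SE) for Tnnc1 to 0.22 ± 0.20 for Myl2, and 0 of 5 passed. Tnnt1 was at 508, 307, 432 and 454 TPM and Myl2 at 621, 363, 522 and 624 TPM in the LLC + rFibcd1 mice. Replicate 2 was the lowest of the 4 mice for all 5 slow genes. In tumor-free mice, limma called 0 of the 10 genes for Control + rFibcd1 against Control (0% of all genes), with 0 at an unadjusted p under 0.05, and the largest difference was that of Myl1, 0.13 ± 0.07 (SE; adjusted p = 0.927). The other fast genes ran from -0.01 (Tnnt3) to 0.06 (Mylpf) and the slow genes from -0.12 (Myl3) to 0.02 (Tnnc1). Dunn comparisons also called 0 genes in both contrasts, with 0 at an unadjusted p under 0.05. The interaction of tumor and rFibcd1 was called for 0 of 10 genes by limma (0% of all genes), with Tnnc2 (0.18 ± 0.07) and Myl1 (-0.24 ± 0.10) at unadjusted p = 0.0269 and 0.0394 and adjusted p = 0.474 and 0.540. The other 8 interaction values ran from -0.09 (Mylpf) to 0.34 (Myl2).

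Both fast light chains were lower in tumor-bearing than in tumor-free mice when all had received rFibcd1. In LLC + rFibcd1 against Control + rFibcd1, 3 of 10 genes fell (8.06% of all genes were called and 1.04% were called lower), which were Mylpf by 0.44 ± 0.07 on the log2 scale (SE; adjusted p = 0.00316), Myl1 by 0.43 ± 0.07 (adjusted p = 0.00329) and Tnnt3 by 0.17 ± 0.05 (adjusted p = 0.0368). Tnni2 (-0.15 ± 0.05; adjusted p = 0.0838), Tnnc2 (-0.07 ± 0.05; adjusted p = 0.330) and the slow genes, whose differences reached 0.23 (Myl2), did not pass. Mylpf was at 5076, 4610, 5465, 5440 and 5714 TPM in Control + rFibcd1, where Myl1 was at 2378, 2156, 2511, 2554 and 2640 TPM. Both light chains were lower in all 4 tumor-bearing mice than in all 5 tumor-free mice, a separation that 1.48% of all genes showed in that direction. The Myl1 and Mylpf calls held when each mouse was left out and in all alternatives but the Dunn comparisons, which called 0 of all genes. Tnnt3 was called in 2 of 11 alternatives and in 12 of 17 fits without 1 mouse. Mylpf was 14.6, 12.3, 11.03, 8.25 and 14.1 times Myl2 in Control + rFibcd1 and 6.31, 11.3, 6.45 and 6.62 times in LLC + rFibcd1, a log2 difference of -0.67 (exact p = 0.0476). This ratio kept an exact p under 0.05 in 1 of 9 fits without 1 mouse.

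Against mock-injected Control mice, 3 of 10 genes fell in LLC + rFibcd1 (3.08% of all genes were called and 1.01% were called lower). Mylpf fell by 0.38 ± 0.07 (SE; adjusted p = 0.0102), Myl1 by 0.30 ± 0.07 (adjusted p = 0.0337) and Tnnt3 by 0.19 ± 0.05 (adjusted p = 0.0443), and for all 3 every LLC + rFibcd1 mouse lay below every Control mouse, as for 2.92% of all genes. With 1 mouse left out, 1 to 3 genes passed, and 1 gene was called without Control replicate 1, 3 or 5 or LLC + rFibcd1 replicate 2 or 3. All 3 calls were lost relative to the general myofiber genes, with a replicate block and by Dunn comparisons, where 1, 4 and 3 of the 10 genes had an unadjusted p under 0.05. Those settings called 1144, 173 and 0 of all 13305 genes. The troponins Tnni2 and Tnnc2 had differences of -0.15 ± 0.05 and -0.08 ± 0.05 that did not pass (adjusted p = 0.146 and 0.377), and the slow genes ran from -0.11 (Myl3) to 0.16 (Tnnt1). These comparisons share the Control or the LLC + rFibcd1 mice, so their values are not independent of each other.

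With all 7 tumor-bearing mice against all 10 tumor-free mice, weighted by group size, 5 of 5 fast genes fell and 0 of 5 slow genes passed, where limma called 44.8% of all genes and 5.98% as lower. The falls were 0.40 ± 0.05 (SE; adjusted p = 0.000393) for Mylpf, 0.32 ± 0.05 (adjusted p = 0.000999) for Myl1, 0.22 ± 0.03 (adjusted p = 0.000834) for Tnnt3, 0.21 ± 0.04 (adjusted p = 0.00200) for Tnni2 and 0.15 ± 0.04 (adjusted p = 0.00607) for Tnnc2. Relative to the general myofiber genes Mylpf alone of the fast genes passed, while Tnnt3, Tnni2, Tnnc2 and Myl1 did not (adjusted p = 0.451, 0.616, 0.405 and 0.0692) and Tnnc2 changed sign to 0.039. With quantile normalization the calls of Tnnt3 and Tnnc2 were lost, with the B cell covariate those of Tnni2 and Tnnc2, and with no filter on low values that of Tnnc2. Of all genes, 10278 were called relative to the general myofiber genes, 5144 with quantile normalization, 582 with the B cell covariate and 6263 with no filter. Mylpf was the only gene of the 10 whose groups did not overlap, with the tumor-bearing mice at 3369 to 4220 TPM and the tumor-free mice at 4610 to 5714 TPM, as 0.526% of all genes did with tumor-bearing mice below. Its call held in all 9 alternatives and in all 17 fits without 1 mouse. The slow differences ran from -0.12 ± 0.12 (Myl3) to 0.09 ± 0.11 (Tnnt1), and 0 of 5 had an unadjusted p under 0.05. Relative to the general myofiber genes Tnnt1 was the slow gene that passed, at 0.28 (adjusted p = 0.0281).

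Partner ratios were also compared between tumor-bearing and tumor-free mice. The regulatory light chains differed most, with a mean log2 Mylpf/Myl2 ratio of 3.00 in tumor-bearing and 3.47 in tumor-free mice (difference -0.47, exact p = 0.00668), followed by Tnnt3/Tnnt1 at 4.75 and 5.07 (-0.31, exact p = 0.00895) and Tnni2/Tnni1 (-0.27, exact p = 0.0472). Tnnc2/Tnnc1 (-0.14, exact p = 0.181) and Myl1/Myl3 (-0.20, exact p = 0.153) did not pass. The first and second of these differences kept an exact p under 0.05 in all 17 fits without 1 mouse, and Tnni2/Tnni1 in 4. In the limma fit of the ratios beside all genes, Mylpf/Myl2 and Tnnt3/Tnnt1 had adjusted p = 0.0115 and 0.0197. Tnni2/Tnni1 did not pass in that fit (adjusted p = 0.0870).

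**Figure D5:**
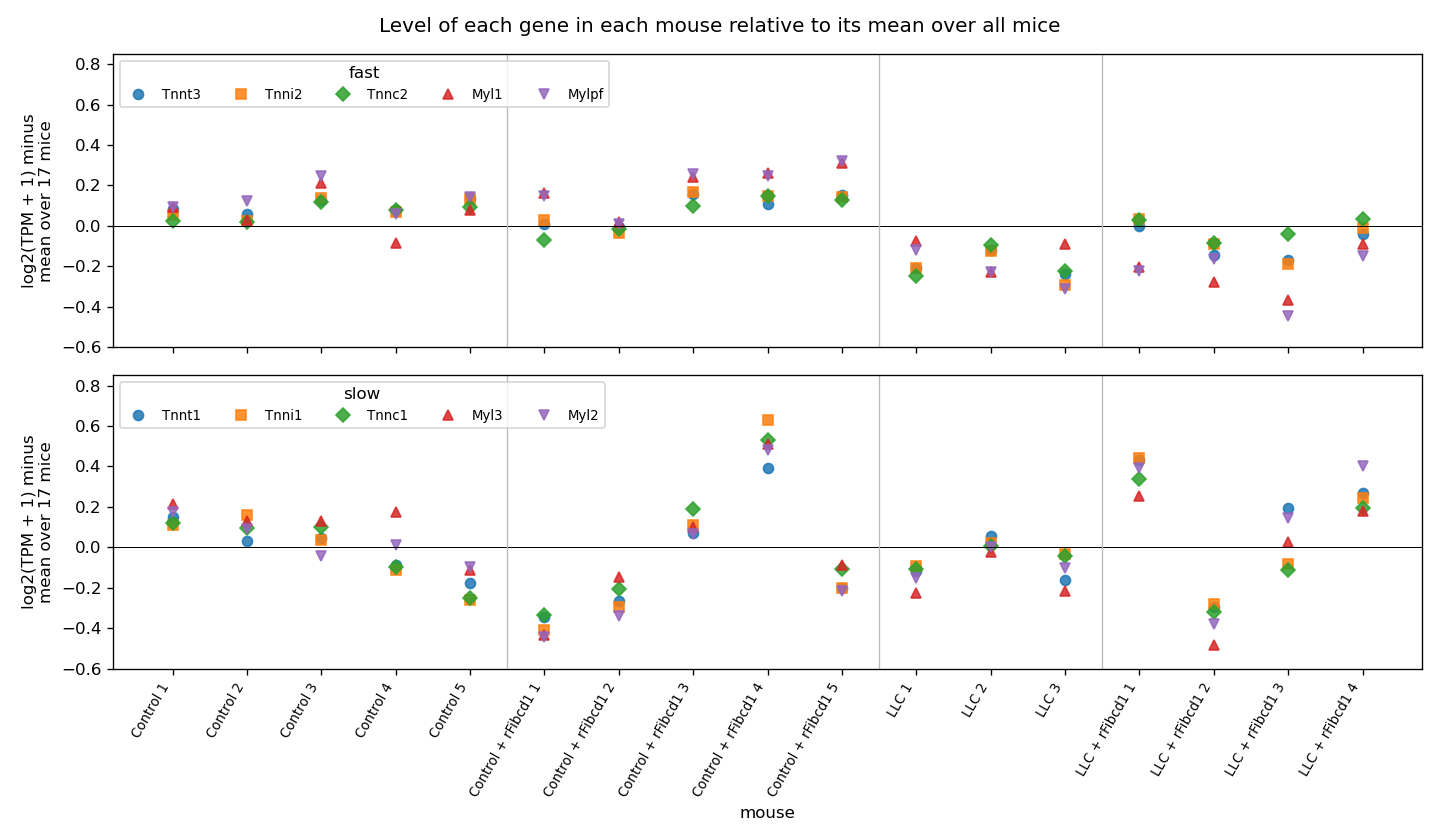
Level of each gene in each mouse, as log2(TPM + 1) minus the gene's mean over the 17 mice (vertical axis), with fast genes above and slow genes below and the 4 groups separated by lines. The 5 slow genes move together from mouse to mouse within groups, and the fast genes sit below 0 in the LLC mice.

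The slow genes varied together. Within groups, the correlation of log2 levels over the 17 mice was 0.92 to 0.99 for the 10 pairs of slow genes, 0.41 to 0.96 for the 10 pairs of fast genes and 0.10 to 0.70 for the 25 fast-slow pairs, given as a description since genes of a mouse share a library. Control + rFibcd1 replicate 4 was the highest of its group and replicate 1 the lowest for all 5 slow genes, by 1.67 to 2.08 times, whereas the fast genes of this group spanned 1.12 to 1.24 times. In LLC + rFibcd1 the slow span was 1.58 to 1.72 times, and in LLC it was 1.08 to 1.16 times. A group of 3 mice spans less than a group of 5 by number alone.

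Across the 17 mice the mean profile of the slow genes was most like Myh7, the slow myosin heavy chain (r = 0.96), Myh7b (0.86) and Tpm3, the slow tropomyosin (0.86). The fast profile was most like Ckm, the muscle creatine kinase (r = 0.97), and Tpm1 (0.94), followed by Ndufs4 (0.93) and mt-Cytb (0.92), which encode parts of the respiratory chain. Among other fast-fiber genes, r with the fast profile was 0.82 for the heavy chain Myh1 but 0.21 for Myh2 and 0.05 for Myh4, and Myh2 had r = 0.73 with the slow profile. The fast and slow profiles had r = 0.24 with each other. The fast profile had r = -0.80 and the slow profile r = -0.35 with the B cell score, and the part of B cell RNA in these values was not tested.

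Genes of the same machinery moved unevenly in LLC against Control. Over all genes tested, 6.02% fell and 29.7% rose in this comparison. Of 12 other fast-fiber genes, 6 fell and 0 rose, led by Myh1 (-0.64 ± 0.13, SE; adjusted p = 0.00930), Tpm1 (-0.35 ± 0.06), Casq1, a calcium store protein (-0.31 ± 0.09), and Myoz1 (-0.29 ± 0.08), with a median of -0.17. Of 10 other slow-fiber genes, 2 fell, Casq2 (-0.39 ± 0.10) and Mybpc1 (-0.26 ± 0.08), and 0 rose. The median of these 10 was 0.16, as over all genes tested, and 3 of the 10 were below 0. Of 18 regulators of fiber type, 6 fell and 1 rose, with Ppargc1a, a coactivator of oxidative metabolism, at -1.34 ± 0.40, Myod1 at -0.39 ± 0.13, Tbx15 at -0.34 ± 0.07 and Nfatc1, a calcineurin-dependent factor, at 0.35 ± 0.09. Leaving out each mouse in turn, added for these lists after seeing the data, gave 0 calls in each list without LLC replicate 3, where 6 fast, 2 slow and 7 regulator genes had an unadjusted p under 0.05. Of the slow-fiber genes 1 fell without LLC replicate 1. Of the regulators 9 fell without Control replicate 2, 3 without Control replicate 4 or 5, and 2 without Control replicate 1 or LLC replicate 1 or 2. In tumor-bearing against tumor-free mice, where 5.98% of all genes fell and 38.8% rose, 8 of 12 fast-fiber genes fell, while of 10 slow-fiber genes Atp2a2, the slow calcium pump, rose by 0.40 ± 0.11 and Mybpc1 fell by 0.18 ± 0.05. Of the slow-fiber genes 2 rose without Control + rFibcd1 replicate 3 or 4 or LLC + rFibcd1 replicate 2, and 3 rose without LLC replicate 1 or LLC + rFibcd1 replicate 3.

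Some paralogs outside fast and slow myofibers rose. Of 8 tested troponin and light chain paralogs, 4 rose in LLC against Control, 0 fell and 4 did not pass, beside 29.7% of all genes called higher. Those that rose were Myl12b (0.82 ± 0.19, SE) and Myl6 (0.71 ± 0.19), light chains of nonmuscle and smooth muscle myosin, Myl9 (0.63 ± 0.22) and Myl4, the atrial and embryonic light chain (0.46 ± 0.10), which was at 1.37 ± 0.12 TPM in LLC (SD, n = 3). Myl9 was at 67.4, 70.1 and 178.7 TPM in the LLC mice and 57.6 to 63.0 TPM in Control, so its value rested largely on LLC replicate 3. Without that mouse Myl12b (0.72), Myl6 (0.54), Myl4 (0.46) and Myl9 (0.17) stayed above 0 and none passed (adjusted p = 0.0718, 0.0929, 0.0697 and 0.128). The limma call of Myl9 was also lost without Control replicate 1, 3, 4 or 5 (adjusted p between 0.0535 and 0.0679). Summed smooth muscle markers (Myh11, Acta2 and Cnn1) were at 61.9 to 85.3 TPM in Control and 84.0 to 315.1 TPM in LLC, highest in LLC replicate 3. Cardiomyocyte markers (Myh6, Nppa, Tnni3, Tnnt2, Myl7, Myl4 and Ryr2) summed to 2.87 to 12.9 TPM in the 17 mice, with the highest value in LLC replicate 3 and Nppa at 0 in all LLC mice, against 221.6 TPM or more for Tnnc1, Myl3 and Myl2 in every mouse. Summed macrophage markers were at 76.2 to 133.2 TPM in Control and 182.4 to 222.6 TPM in LLC. The part of these cells in the paralog values was not tested.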

How the data were processed

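Diaphragm RNA-seq of 17 mice was deposited as 1 table of TPM (length-scaled transcript abundance that sums to the same total in each sample) for 47643 genes. The authors made the TPM values in CLC Genomics Workbench on the mouse genome (mm10 per the labels' processing notes); the labels and the study's methods name different library kits, so strandedness is unsettled, and no batch is labelled. All 17 columns were matched to samples by name. The 10 genes and the related gene lists were chosen with earlier results of these data known. Genes reaching 1 TPM or more in 3 samples or more (13305, among them all 10) were fitted on log2(TPM + 1) with limma 3.58.1 (R 4.3.3, trend, 4 groups, 13 residual degrees of freedom), with Benjamini-Hochberg adjustment over all genes and a threshold of 0.05, so fold changes are on the log2(TPM + 1) scale. The study used Kruskal-Wallis and Dunn comparisons. Dunn comparisons were run here as an alternative, with the same adjustment over all genes. The study's cutoffs were a p-value and a log2 ratio, and it states no adjustment over genes. Partner ratios, log2((fast + 1)/(slow + 1)), were compared by exact permutation over mice. All 10 genes were fitted in every comparison and are given singly or by range, and other genes of a list by the largest change among those passing, up to 4 per list. In the general myofiber and B cell lists, 1 gene each is not reported here and was left out of every value. Depth was estimated from steps between low TPM values, of which 81.7% to 84.4% lay within 0.02 of a whole read (4.0% by chance), so no count test was run. The fit was tested on simulated data with 200 changed genes. Alternatives were another pseudocount, filters, scalings, a reference to general myofiber genes, a B cell covariate, fewer groups, a replicate block, Dunn comparisons and leaving out each mouse.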

Additional observations from a re-analysis of the deposited data

Results flagged for a closer look

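Of 45 groups of at least 4 mice examined for a value far from the rest, 2 were singled out, and chance alone singles out about 1 in 20. Myl3 in Control replicate 5 was at 286.7 TPM, below the other 4 Control mice at 339.4 to 359.8 TPM, and this mouse was also the lowest Control mouse for the other slow genes. The log2 ratio of Mylpf to Myl2 was 3.49 in LLC + rFibcd1 replicate 2, above the other 3 mice of that group, and this mouse had the lowest level of all 5 slow genes in the group. What set these mice apart was not tested.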

How the results depend on the processing

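In LLC against Control, the 4 genes called became 0 relative to the general myofiber genes, with the B cell covariate, with a replicate block and by Dunn comparisons (0, 4, 4 and 3 at an unadjusted p under 0.05). Those settings called 9650, 9, 5 and 0 of all genes. With quantile normalization 3 were called and 4 had an unadjusted p under 0.05, Tnnt3 not among them. The count was 0 to 5 when 1 mouse was left out, 0 being without LLC replicate 3. In LLC + rFibcd1 against Control, the 3 genes became 1 without a filter, with median-ratio scaling, with quantile normalization and with only the groups compared (336, 294, 366 and 260 of all genes called). They became 2 after rescaling without mitochondrial genes and with the B cell covariate (366 and 378 of all genes). They became 0 relative to the general myofiber genes, with the replicate block and by Dunn comparisons (1, 4 and 3 at an unadjusted p under 0.05), where 1144, 173 and 0 of all genes were called. Leaving out 1 mouse gave 1 to 3. In LLC + rFibcd1 against Control + rFibcd1, the 3 genes became 0 by Dunn comparisons (3 at an unadjusted p under 0.05), which called 0 of all genes. They became 2 without a filter, with median-ratio scaling, quantile normalization, rescaling without mitochondrial genes, the general myofiber reference, the B cell covariate, only the groups compared or a replicate block. Those fits called 304 (only the groups compared) to 2849 (general myofiber reference) of all genes. With 1 mouse left out, 2 to 4 genes were called. In tumor-bearing against tumor-free mice, the 5 genes became 4 without a filter, 3 with quantile normalization, 3 with the B cell covariate and 2 relative to the general myofiber genes, of which 1 was a remaining fall (Mylpf) and 1 a slow gene newly higher (Tnnt1). Those settings called 6263, 5144, 582 and 10278 of all genes. Tnnc2 turned from a fall to 0.012 (LLC against Control) and 0.039 (tumor-bearing against tumor-free) relative to the general myofiber genes. The cause of these shifts was not tested. Same-numbered mice of different groups were not more alike than others. Their correlation was -0.46 to 0.49, median -0.06, over 22 pairs, against -0.65 to 0.75, median -0.03, over 85 other pairs. A batch shared by number was not tested. For single genes, over the alternatives other than leaving out a mouse, 602 values kept their call and direction, 66 moved, 55 lost and 5 gained a call, and 2 that had a call changed sign. The depth left a counting error of 1.41% or less for each of the 10 genes.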
